A study of Homo sapiens with 21 samples.

Results

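Interferon-stimulated genes are the genes that cells switch on after interferon binds its receptors, and 55 of them were followed through human lung epithelial cells that had gained or lost a chromosome arm. The 55 genes were taken as a list of symbols, out of 20597 gene names in the 3 deposited tables. By these symbols 54 had an entry in each table. The exception, DDX58, stood under its other symbol RIGI in the footprint table and in the chromosome 8 mRNA table, so that all 55 were found there, and had no entry in the chromosome 3 mRNA table.

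The samples come from 2 isogenic sets, in which lines share a parental background and differ by a chromosome arm. In the chromosome 3 set, mRNA was measured in 3q gain cells, 3p loss cells and cells labelled Chr3 WT. Ribosome-protected fragments, the stretches of mRNA covered by translating ribosomes after a short cycloheximide treatment, were captured from 3p loss cells and from cells labelled 3p WT. In the chromosome 8 set, mRNA was measured in 8p loss and 8p WT cells. Each of these 7 groups had 3 libraries called biological replicates. The labels describe every line only as a lung epithelial cell. Whether a genotype is 1 clone, whether replicates were separate cultures, and whether mRNA and fragments came from the same cultures are not given in the sources used here, so p-values measure the spread between these libraries, which may be technical.

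Type I and type III interferons signal through the kinases JAK1 and TYK2 to transcription factor complexes that hold IRF9 and bind the interferon-stimulated response element in the promoters of their targets. The products sense viral RNA, degrade or block it, trap virus particles at membranes, and tag proteins with the ubiquitin-like protein ISG15. Epithelial cells keep many of these genes at a low level without added interferon. Single members can also be induced by interferon gamma, in part through IRF1, or directly by IRF3 after RNA or DNA sensing.

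Promoters are shown first because the response element is the feature the members are known to share. Windows running from 250 bases before to 50 bases after the gene start were found in RefSeq on GRCh38.p14 for 43 of the 55 members, and 27 of these 43 (62.8%) held the element's core (GAAA, any 2 bases, then GAAA) on either strand, against 996 of 27305 windows in all (3.65%). More than 1 match, overlapping matches included, was found in 15 members and in 74 windows in all (0.271%). The gamma-activated site core TTCNNNGAA was found in 11 of the 43 members (25.6%), against 7.88% of all windows. Where any listed window of a gene was allowed, 28 of the 43 members (65.1%) held the response element core, against 4.38% of all genes. A match of letters is a description of the window and not evidence of binding.

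IFI6 and ISG15 are given over the 250 bases before the start, since their mRNA and footprint values differ in the ways described further on. IFI6 lies at chr1:27672193-27672442 on the minus strand and ISG15 at chr1:1013247-1013496 on the plus strand. Sequences run 5′ to 3′ along the gene's strand, and capitals mark every match to the response element core.
IFI6: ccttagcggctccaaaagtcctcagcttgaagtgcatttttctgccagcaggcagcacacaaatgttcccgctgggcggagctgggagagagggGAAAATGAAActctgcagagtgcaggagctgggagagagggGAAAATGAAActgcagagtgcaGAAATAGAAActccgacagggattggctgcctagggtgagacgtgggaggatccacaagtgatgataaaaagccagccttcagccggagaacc
ISG15: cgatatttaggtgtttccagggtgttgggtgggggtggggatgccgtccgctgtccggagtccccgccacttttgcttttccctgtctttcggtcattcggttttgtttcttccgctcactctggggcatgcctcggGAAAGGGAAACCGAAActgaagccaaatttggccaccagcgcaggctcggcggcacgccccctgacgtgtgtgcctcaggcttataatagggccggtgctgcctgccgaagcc

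Of the 13 members whose mRNA rose in 3q gain, 12 had a window and 9 of them held the core. For 8 of these, IFI6 being shown above, 30 bases around the match nearest to the start are given, with the match in capitals. IFIT1 and IFIT5 carry it in the reverse direction. The matches begin 21 bases before the start in IFIH1 (chr2:162318686-162318715, minus strand), 12 in OAS3 (chr12:112938452-112938481, plus), 6 in EIF2AK2 (chr2:37156967-37156996, minus) and 103 in IFIT1 (chr10:89392510-89392539, plus). They begin 4 bases before it in IFIT5 (chr10:89414554-89414583, plus), 6 in IFITM1 (chr11:314024-314053, plus) and 79 in PLSCR1 (chr3:146544667-146544696, minus), and 11 bases after it in MX1 (chr21:41420559-41420588, plus).
IFIH1: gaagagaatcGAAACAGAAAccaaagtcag
OAS3: agccgggcggGAAAACGAAAccagaaatcc
EIF2AK2: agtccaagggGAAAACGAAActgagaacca
IFIT1: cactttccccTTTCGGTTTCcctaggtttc
IFIT5: atttcttaagTTTCAGTTTCtgagcgctcg
IFITM1: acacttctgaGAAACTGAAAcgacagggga
PLSCR1: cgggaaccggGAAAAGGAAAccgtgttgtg
MX1: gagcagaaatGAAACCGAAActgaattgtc

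The mRNA values are taken as TPM, an abundance scaled for transcript length and library total, and their read depth is unknown. Footprints are whole counts, summing to 4596062, 5464136 and 13534981 in the 3p loss libraries and to 7941616, 5606604 and 8484265 in the WT libraries, and are printed as CPM, the count scaled to a common library total, which are not scaled for length. All 7 epithelial markers (EPCAM, CDH1, KRT5, KRT8, KRT18, KRT19 and TP63) were above 0 in every group. Their summed level was 8596.8 to 12353.1 TPM in 3q gain and 12019.2 to 20581.9 TPM in 3p loss, against 6125.0 to 9690.1 TPM in WT, so that 3p loss lay wholly above WT. In footprints it was 7706.3 to 8674.8 CPM in 3p loss and 8157.5 to 8542.2 CPM in WT, which overlapped. The plasmacytoid dendritic cell markers CLEC4C, IL3RA and LILRA4, of the cell type best known for secreting interferon, were at 0 in every library. Of 7 immune cell markers, 4 were above 0 in some library of 3q gain, 5 in 3p loss and 3 in WT, with PTPRC and CD3E at 0 in all chromosome 3 mRNA libraries. Their summed level was 18.1 to 19.8 TPM in 3q gain, 9.63 to 33.6 TPM in 3p loss and 13.0 to 17.4 TPM in WT. The summed level of the 5 fibroblast markers was 2.75 to 6.79 TPM in 3q gain, 8.00 to 123.4 TPM in 3p loss and 5.16 to 6.33 TPM in WT. In footprints it was 66.7 to 75.8 CPM in 3p loss, against 21.4 to 23.0 CPM in WT, and the part of these markers in the differences described here was not tested.

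In 3q gain cells the interferon-stimulated genes stood above WT nearly as a block. Among 50 members with a mean of at least 1 TPM, 49 had a positive difference (52.3% of all genes tested) and in 33 all 3 libraries of 3q gain lay above all 3 of WT (15.5% of all genes). That mean was taken over all chromosome 3 mRNA libraries. Some members, such as MX2 with a mean of 0.381 TPM in WT, reached it only through the altered groups. The median member was 1.25 higher on the log2(TPM + 1) scale, against 0.02 over all genes. By limma with Benjamini-Hochberg adjustment over all genes, 13 members rose (2.60% of all genes) and 0 fell (2.67% of all genes). At an unadjusted p under 0.05 limma put 33 members higher (12.0% of all genes) and 0 lower. In bulk libraries, more of an mRNA in each cell and more cells that hold it cannot be told apart.

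The largest increases were in effectors that act on viral replication and entry. IFI6, a small membrane protein that blocks the replication of some viruses at the endoplasmic reticulum, had 843.3, 228.5 and 433.3 TPM in 3q gain and 44.8, 28.9 and 23.3 TPM in WT. The 3q gain libraries lay far above every WT library, with replicate 2 the lowest of them (difference 3.77 ± 0.64 SE, limma adjusted p = 0.0139). MX1, a dynamin-like GTPase that traps viral nucleocapsids, had 167.5, 37.8 and 116.9 TPM in 3q gain and 4.30, 3.07 and 7.21 TPM in WT. Here too the groups were separate and 3q gain replicate 2 was the lowest of its group (4.03 ± 0.73, limma adjusted p = 0.0178). IFITM1, which hinders the fusion of viral with cellular membranes, had 162.3, 48.7 and 202.8 TPM in 3q gain and 17.0, 2.90 and 3.37 TPM in WT (4.13 ± 0.79, limma adjusted p = 0.0214). Its closely similar paralogs IFITM2 and IFITM3 may share reads with it, which makes the division of reads among these genes uncertain.

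Among the enzymes that act on double-stranded RNA, 3 of 6 tested rose. OAS1, an oligoadenylate synthetase that answers double-stranded RNA, had 96.3, 28.4 and 67.6 TPM in 3q gain and 3.93, 4.67 and 9.63 TPM in WT (3.12 ± 0.60, limma adjusted p = 0.0215). OAS3, the largest of that family, had 160.4, 69.3 and 89.8 TPM in 3q gain and 38.2, 44.3 and 41.2 TPM in WT (1.26 ± 0.31, limma adjusted p = 0.0484). In both genes every 3q gain library exceeded every WT library. EIF2AK2, the kinase PKR that halts translation by phosphorylating an initiation factor, had 45.1, 34.8 and 50.7 TPM in 3q gain and 24.3, 24.9 and 24 TPM in WT (0.79 ± 0.15, limma adjusted p = 0.0186). Its change was small, and its WT libraries were nearly equal. ADAR, an RNA-editing enzyme and the most abundant of the 6, had 149.6, 118.9 and 139.1 TPM in 3q gain and 106.9, 93.0 and 104.1 TPM in WT, and did not pass (0.42 ± 0.13, limma adjusted p = 0.107).

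The ISG15 conjugation system was uneven. UBE2L6, the conjugating enzyme of ISG15, had 117.7, 111.8 and 139.2 TPM in 3q gain and 38.7, 6.04 and 16.8 TPM in WT (2.85 ± 0.54, limma adjusted p = 0.0205). USP18, which removes ISG15 and also damps the type I receptor, had 35.6, 15.6 and 26.5 TPM in 3q gain and 8.60, 8.05 and 9.20 TPM in WT (1.41 ± 0.28, limma adjusted p = 0.0240). Both separated the groups, although USP18 has a near-identical copy that may take some of its reads. ISG15 itself had 448.3, 142.5 and 344.3 TPM in 3q gain and 178.1, 148.7 and 168.8 TPM in WT. Replicates 1 and 3 of 3q gain were high and replicate 2 lay below all of WT, and the gene did not pass (0.76 ± 0.61, limma adjusted p = 0.493). The other 3 members of the class, HERC5, HERC6 and TRIM25, differed by 0.40 to 1.46 and did not pass.

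IRF9, the DNA-binding subunit of the complex that type I interferon activates, was the only one of the 4 transcription factors to pass the test, while 3 of the 4 had all 3q gain libraries above all of WT. It had 62.2, 34.6 and 61.4 TPM in 3q gain and 13.3, 7.06 and 16.8 TPM in WT, with no overlap (2.03 ± 0.35, limma adjusted p = 0.0143). IRF7, which amplifies interferon production, had 66.1, 25.9 and 42.7 TPM in 3q gain and 12.4, 4.11 and 19.8 TPM in WT, without overlap (1.93 ± 0.53, limma adjusted p = 0.0682). STAT2, which is in the same complex as IRF9, had 39.2, 31.6 and 38.2 TPM in 3q gain and 26.6, 22.5 and 19.2 TPM in WT, also without overlap (0.66 ± 0.21, limma adjusted p = 0.0971). IRF1, which also answers to interferon gamma, had 43.2, 39.4 and 44.6 TPM in 3q gain and 43.4, 21.3 and 30.2 TPM in WT, which overlapped (0.47 ± 0.23, limma adjusted p = 0.260). Of the RNA sensors, IFIH1, the long double-stranded RNA sensor MDA5, had 44.6, 25.7 and 42.2 TPM in 3q gain and 18.0, 9.64 and 17.9 TPM in WT (1.26 ± 0.31, limma adjusted p = 0.0484). The other sensor tested, ZNFX1, had 54.7, 41.8 and 59.8 TPM in 3q gain and 42.7, 54.6 and 46.3 TPM in WT, with overlapping libraries (0.11 ± 0.23, limma adjusted p = 0.808).

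IFIT proteins bind viral RNA that lacks the host's cap marks, and 2 of the 4 rose. IFIT1 had 51.7, 17.4 and 41.2 TPM in 3q gain and 5.6, 2.51 and 7.36 TPM in WT (2.57 ± 0.63, limma adjusted p = 0.0490), and IFIT5 rose by 1.10 ± 0.24 (limma adjusted p = 0.0344). IFIT3, the most abundant of the 4, had 76.6, 25.6 and 67.0 TPM in 3q gain and 26.3, 7.13 and 22.2 TPM in WT, where replicate 2 of 3q gain fell inside the WT range (1.59 ± 0.76, limma adjusted p = 0.246). PLSCR1, a membrane-bound scramblase, had 132.3, 71.5 and 99.7 TPM in 3q gain and 38.5, 37.8 and 39.0 TPM in WT (1.33 ± 0.29, limma adjusted p = 0.0337). PLSCR1 lies on the gained arm 3q at chr3:146515180-146544607 (GRCh38.p14), where its 27 tested neighbours within 5 Mb had a median difference of 0.52. It was the only called member on chromosome 3, and for none of the other 49 members tested did the neighbours' median pass 0.5 in either direction.

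Several members missed the threshold although their groups did not overlap. IFI27, an interferon alpha-inducible protein, was called in 3p loss but not in 3q gain, where it had 23.6, 148.3 and 355.3 TPM, against 11.2, 5.80 and 12.0 TPM in WT (3.41 ± 0.87, limma adjusted p = 0.0541). IFI44L, of little-known function, differed by 3.46 ± 0.97 (limma adjusted p = 0.0727) and its relative IFI44 by 2.99 ± 0.80 (limma adjusted p = 0.0635). The nuclear body and TRIM genes, none of which passed, had the lowest median of the role classes, 0.47 over 5 members. PML, which builds nuclear bodies and was the most abundant of these 5, had 60.8, 52.6 and 50.1 TPM in 3q gain and 48.6, 40.3 and 35.3 TPM in WT (0.39 ± 0.15, limma adjusted p = 0.150). GBP3, a guanylate-binding GTPase, was the only member with a negative difference (-0.28 ± 0.39, limma adjusted p = 0.712).

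None of the 13 calls held in every alternative setting. Without 3q gain replicate 3 none of the 50 members passed, and their median difference was 1.15. Calls over all genes in either direction also fell in number, to 0.980% without that library, against 5.27% with all libraries. Without 3q gain replicate 1 or 2 the members' count was 7 or 8 (4.73% or 1.33% of all genes), and without WT replicate 1, 2 or 3 it was 10, 4 or 4 (5.65%, 2.43% or 2.62% of all genes).

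**Figure D1:**
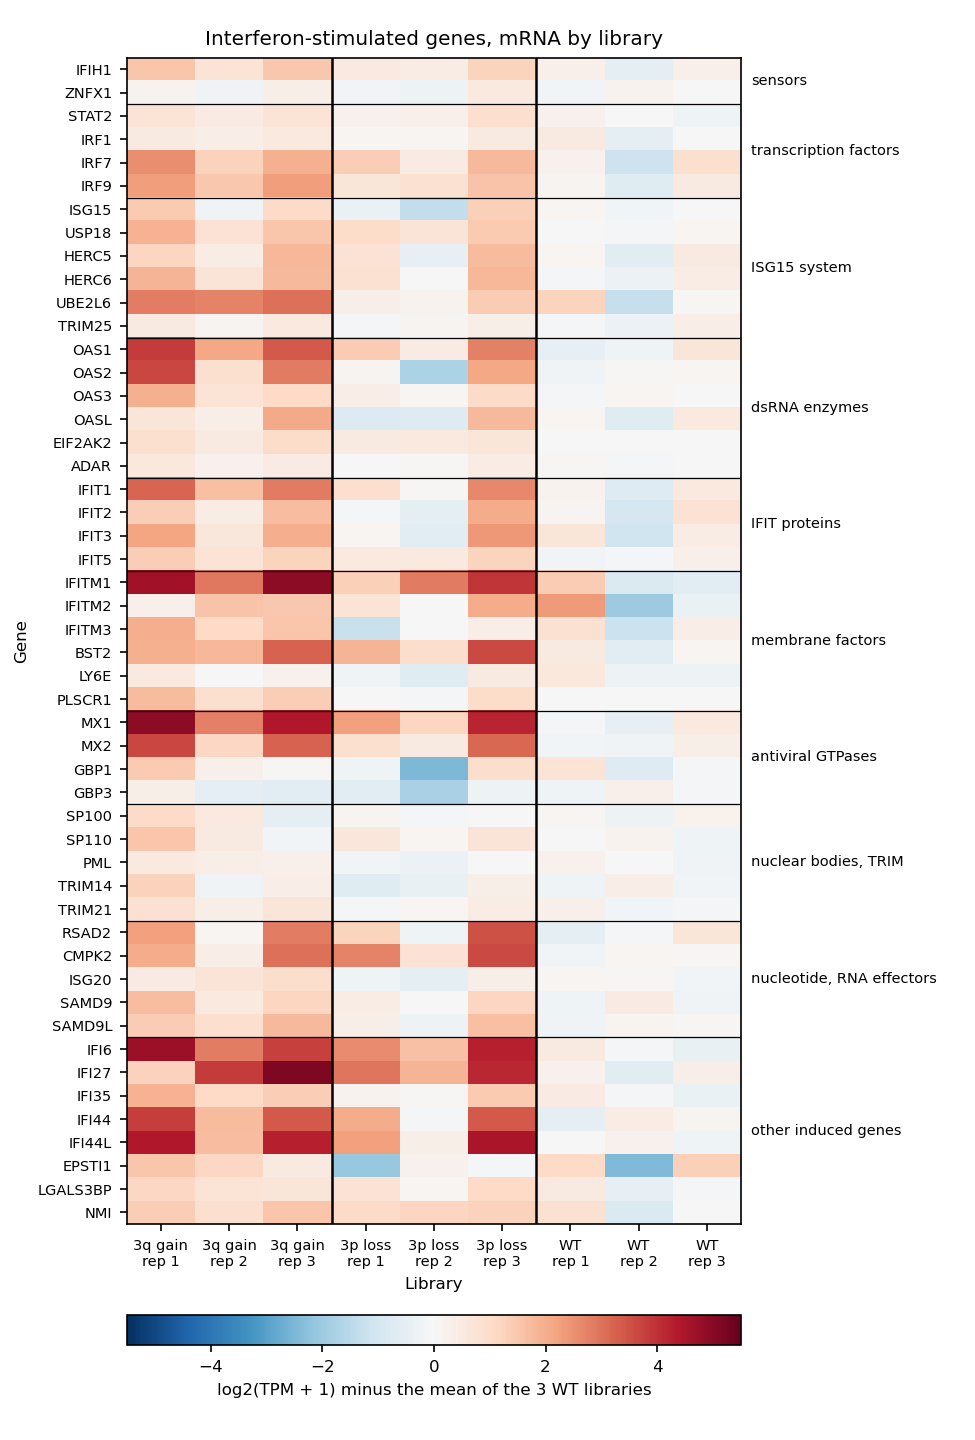
Heat map of 50 members in the 9 chromosome 3 mRNA libraries, grouped by role, with colour for log2(TPM + 1) minus the WT mean. The columns of 3q gain replicates 1 and 3 and of 3p loss replicate 3 are the strongest, with median differences of 1.53, 1.5 and 1.36, and 3p loss replicate 2 is near WT at 0.07.

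In 3p loss cells the median member stood closer to WT, and the 3 libraries differed among themselves. Of 50 members tested, 41 had a positive difference (50.9% of all genes), 8 rose by limma (6.17% of all genes) and 0 fell (8.80% of all genes). The median difference was 0.57, against 0.01 over all genes, and in 14 members all 3 libraries of 3p loss lay above all 3 of WT (16.8% of all genes). At an unadjusted p under 0.05 limma put 17 members higher (14.6% of all genes) and 1 lower. These differences share the WT libraries with those of 3q gain.

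Much of the difference was in a single library. Replicate 3 of 3p loss was the highest of its group for 48 of 50 members, as it was for 38.7% of all genes. Its members' median stood 1.36 above the WT mean, against 0.38 in replicate 1 and 0.07 in replicate 2, and 33 members were over 2-fold above WT in it, against 13 and 5. Without replicate 3 the median difference was 0.24, 35 of 50 members were positive, and 1 was called (10.1% of all genes). The summed level of the 50 members tested was 2121.6, 1818.3 and 4402.0 TPM in 3p loss and 2545.4, 1396.5 and 1959.2 TPM in WT. In 3q gain, where the sum was 6250.1, 3285.9 and 5028.3 TPM, replicate 2 was the lowest for 40 of 50 members (26.4% of all genes).

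Members varied widely between replicates in these mRNA libraries. The median range of a member between replicates, as log2(TPM + 1), was 1.18 in 3q gain, 1.43 in 3p loss and 0.84 in WT, while that of all genes was 0.31, 0.39 and 0.42. In the chromosome 8 set the members' median range was 0.13 in 8p loss and 0.07 in 8p WT. On the footprint scale, log2(CPM + 1), it was 0.18 in 3p loss and 0.29 in WT. The first 2 footprint replicates of each group were close to counting noise, with a chi-square per degree of freedom of 1.38 in 3p loss and 1.34 in WT, against 6.94 to 12.4 for pairs with replicate 3, so footprint spread may be understated.

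**Figure D2:**
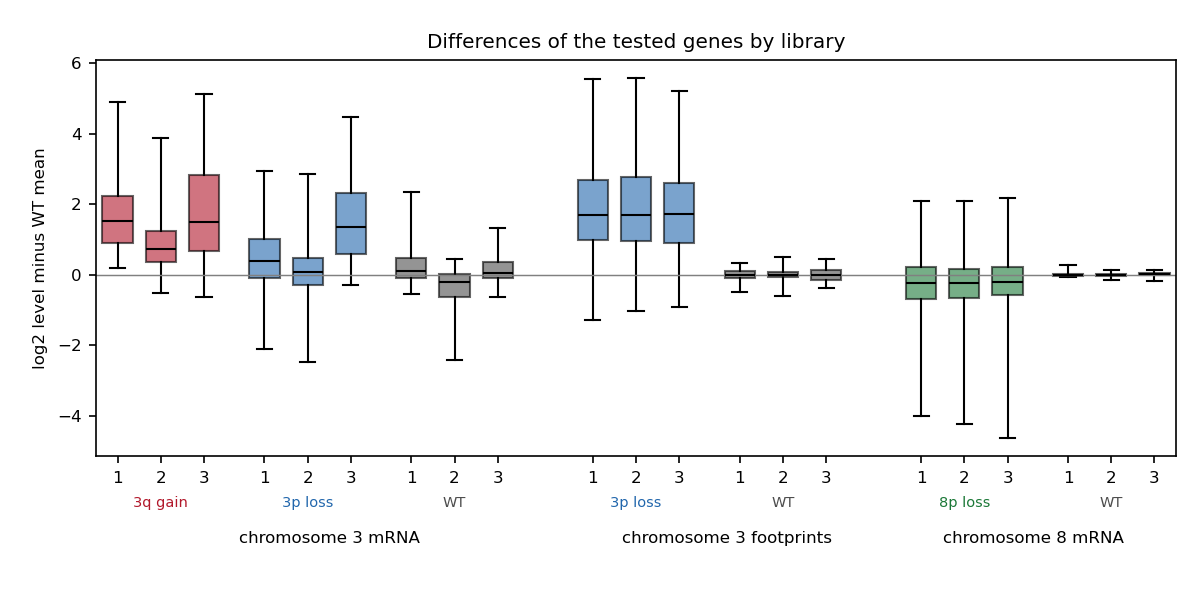
Box plots of the tested members' differences from the WT mean, 1 box a library, for chromosome 3 mRNA (50 members), chromosome 3 footprints (47) and chromosome 8 mRNA (55). Boxes span the quartiles and whiskers the lowest and highest member. The 3 footprint libraries of 3p loss are alike, with medians of 1.70, 1.70 and 1.72, whereas its mRNA libraries have medians of 0.38, 0.07 and 1.36.

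Of the 8 calls in 3p loss, IFI27 had the largest difference and IFI6 the next. IFI6 had 195.8, 96.6 and 613.7 TPM in 3p loss, against the WT values given above (2.82 ± 0.64, limma adjusted p = 0.0181). All 3 libraries lay above WT and replicate 3 was the highest. MX1 had 25.6, 11.6 and 100.2 TPM in 3p loss (2.53 ± 0.73, limma adjusted p = 0.0462). IFI27 had 77.7, 36.9 and 180.9 TPM (2.99 ± 0.87, limma adjusted p = 0.0470). In MX1 and IFI27 the groups were separate, and replicate 3 was again the highest. IFITM1 had 15.7, 47.4 and 102.0 TPM in 3p loss (2.69 ± 0.79, limma adjusted p = 0.0486), and its replicate 1 lay below WT replicate 1, so the groups overlapped.

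The remaining calls were in genes of varied role. EIF2AK2 had 34.5, 36.3 and 39.7 TPM in 3p loss, above all of WT and with little spread (0.57 ± 0.15, limma adjusted p = 0.0293). USP18 had 18.5, 14.5 and 24.8 TPM (1.05 ± 0.28, limma adjusted p = 0.0354). BST2, or tetherin, which holds budding virus at the cell surface, had 5.31, 2.42 and 20.7 TPM in 3p loss and 1.42, 0.165 and 0.853 TPM in WT (2.16 ± 0.64, limma adjusted p = 0.0495). NMI, a partner of STAT proteins, had 32.3, 35.3 and 37.3 TPM in 3p loss and 27.0, 8.05 and 14.7 TPM in WT (1.18 ± 0.34, limma adjusted p = 0.0464). In all 4 genes every 3p loss library was above every WT library. BST2 had a mean of 0.812 TPM in WT and passed the filter of 1 TPM only through 3p loss and 3q gain.

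Other members described for 3q gain did not pass in 3p loss. OAS1 had 16.6, 8.05 and 44.9 TPM in 3p loss, where replicate 2 fell inside the WT range (1.54 ± 0.60, limma adjusted p = 0.117). IRF9 had 19.4, 21.4 and 36.6 TPM, all above WT (1.02 ± 0.35, limma adjusted p = 0.0786). UBE2L6 had 20.6, 18.3 and 43.6 TPM, which overlapped WT (0.63 ± 0.54, limma adjusted p = 0.462). ISG15 had 128.5, 63.6 and 414.8 TPM, with replicates 1 and 2 below all of WT and replicate 3 far above it (-0.13 ± 0.61, limma adjusted p = 0.911). No member lies on the lost arm 3p, and the neighbours of the tested members had median differences of -0.17 to 0.42.

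Again none of the 8 calls held in every alternative setting. Leaving out 3p loss replicates 1, 2 and 3 in turn gave 1, 8 and 1 calls, where 8.82%, 11.8% and 10.1% of all genes were called, against 15.0% with all libraries. Leaving out WT replicates 1, 2 and 3 gave 3, 1 and 0 calls, with 13.0%, 12.4% and 9.47% of all genes called.

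Set directly against 3p loss, 3q gain had the higher value in 49 of 50 members (51.1% of all genes), but 0 members passed by limma (3.93% of all genes). The median difference was 0.67, and 11 members were higher (9.69% of all genes) and 0 lower at an unadjusted limma p under 0.05. In 5 members, UBE2L6, IFITM3, PML, ISG20 and EPSTI1, all 3 libraries of 3q gain exceeded all 3 of 3p loss (12.8% of all genes). UBE2L6 came nearest to the threshold, with the values already given (2.22 ± 0.54, limma adjusted p = 0.0553). IFITM3, the most abundant member of the membrane class, had 1593.6, 841.3 and 1134.1 TPM in 3q gain, 171.3, 404.1 and 510.0 TPM in 3p loss and 707.0, 173.2 and 513.0 TPM in WT (1.81 ± 0.54 for 3q gain minus 3p loss, limma adjusted p = 0.111). Fitting these 2 groups alone gave 1 call (3.85% of all genes), and leaving out 3p loss replicate 3 gave 2 (2.68% of all genes). With single libraries left out, the members' median difference ran from 0.27 without 3p loss replicate 2 to 1.03 without 3p loss replicate 3. The medians of all genes were then 0.03 and 0.02.

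**Figure D3:**
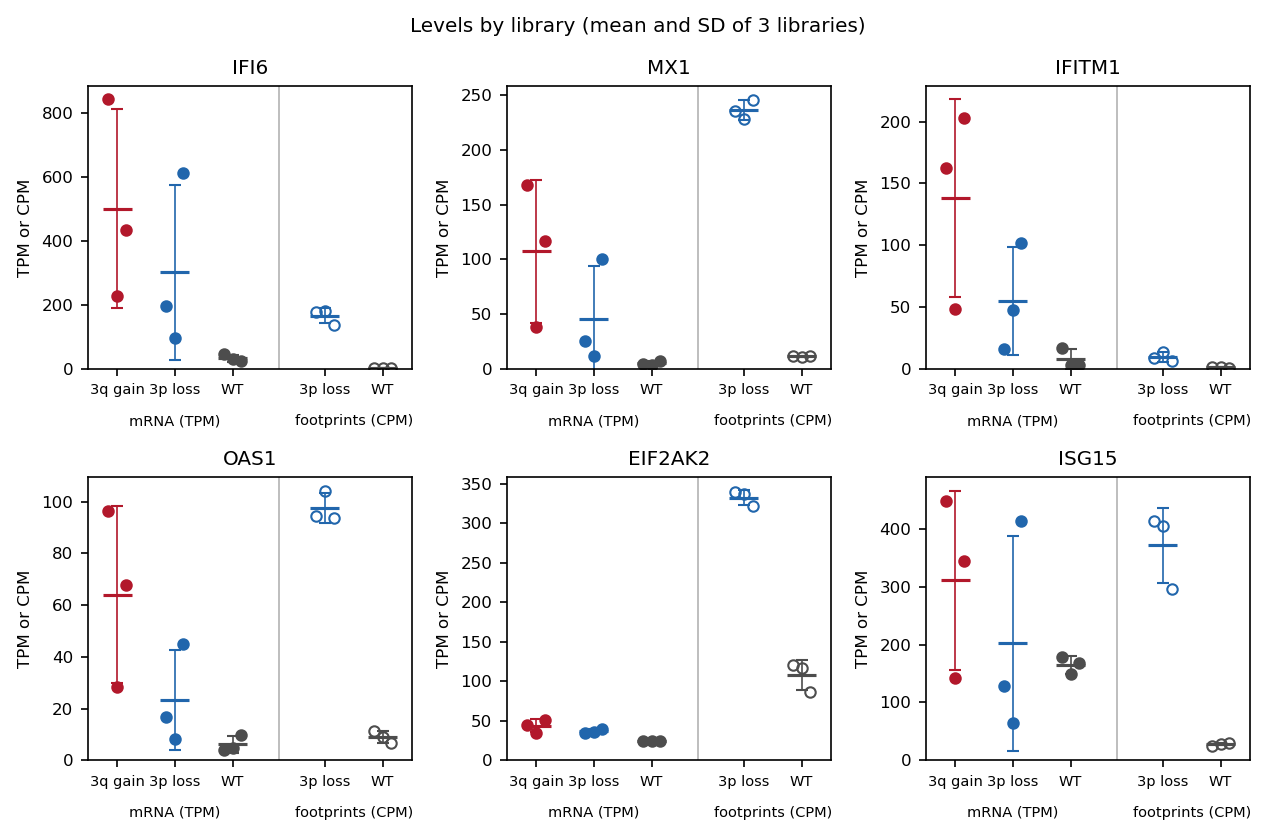
Levels of IFI6, MX1, IFITM1, OAS1, EIF2AK2 and ISG15 in each library on linear axes, mRNA as filled points in TPM and footprints as open points in CPM. Bars show the mean ± SD of 3 libraries. Footprints of ISG15 are 296.9 to 413.6 CPM in 3p loss and 25.4 to 29.7 CPM in WT, while its mRNA overlaps between these groups.

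In ribosome footprints most members were higher in 3p loss, and the 3 libraries were alike. Of 47 members with enough counts to test, 39 rose by edgeR's quasi-likelihood test (35.1% of all genes rose), 3 fell (34.2% of all genes) and 5 did not pass. The median difference was 1.63, against 0.02 over all genes, and 41 members were positive (50.7% of all genes). In 40 members all 3 libraries of 3p loss were above all 3 of WT (43.2% of all genes) and in 1 all were below (30.4% of all genes). Every tested member of 5 classes rose: the transcription factors with 2, the ISG15 system with 6, the double-stranded RNA enzymes with 6, the IFIT proteins with 4, and the other induced genes with 7. Some members met the filter on counts only through 3p loss, so that a rise was the only call open to them. Among these were XAF1, BST2 and CMPK2, with 1, 5 and 8 footprints in WT, and they are included in the counts above. Most of all genes passed in this comparison in some direction, so the calls are to be read against that background.

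The 8 members left untested include 3 with 0 counts in all 6 libraries, IRF7, LY6E and RTP4, although IRF7 and LY6E mRNA was present in every chromosome 3 library. In a single library 0 counts allow up to 0.222 to 0.653 CPM. IRF9, whose mRNA was at 7.06 to 62.2 TPM, had 2 footprints in all, IFI27 had 7, GBP2 29, IFITM2 32 and EPSTI1 46. For GBP2, a guanylate-binding GTPase, 23 of these footprints were in 3p loss and 6 in WT, a ratio of 3.58 between their CPM (exact 95% interval 1.42 to 10.7, counting error only). These 8 genes had too few counts for edgeR's filter, and the cause of the low counts was not tested.

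IFI6 had the largest footprint rise among members with more than 10 counts in WT. It had 177.3, 180.3 and 138.3 CPM in 3p loss and 2.27, 2.68 and 3.54 CPM in WT (5.70 ± 0.19, edgeR adjusted p = 4.72e-10). MX1 had 235.6, 227.8 and 245.9 CPM in 3p loss and 11.8, 11.1 and 11.3 CPM in WT (4.23 ± 0.11, edgeR adjusted p = 5.62e-11). Unlike the mRNA libraries, the 3 footprint libraries of 3p loss were close to each other for both genes. ISG15 had 413.6, 405.7 and 296.9 CPM in 3p loss and 25.4, 28.0 and 29.7 CPM in WT (3.6 ± 0.15, edgeR adjusted p = 1.70e-09), a clear separation in a gene whose mRNA groups overlapped.

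Genes of nucleotide and RNA metabolism rose in 4 of 5 cases. RSAD2, or viperin, which makes a chain-terminating nucleotide, had 54.6, 56.0 and 51.7 CPM in 3p loss and 3.53, 2.85 and 2.83 CPM in WT (3.98 ± 0.17, edgeR adjusted p = 1.89e-09). Its mRNA stood at 2.90, 0.425 and 18.0 TPM in 3p loss and 0.160, 0.534 and 1.61 TPM in WT, which overlapped (1.5 ± 0.93, limma adjusted p = 0.307). CMPK2, a nucleotide kinase encoded next to RSAD2, had 436 footprints in 3p loss and 8 in WT, summed over libraries, a ratio of 50.9 between their CPM (exact 95% interval 25.6 to 118.6, counting error only). SAMD9, which restricts viral translation and is the most abundant of the class, had 287.9, 285.7 and 303.1 CPM in 3p loss and 93.1, 88.8 and 81.0 CPM in WT (1.60 ± 0.09, edgeR adjusted p = 2.45e-08). ISG20, an exonuclease, was the member that did not pass (0.35 ± 0.23, edgeR adjusted p = 0.202).

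Several other large ratios rest on few WT footprints. XAF1, which promotes cell death, had 105 footprints in 3p loss and 1 in WT, a ratio of 98 (exact 95% interval 17.2 to 3909.0). Its mRNA reached at most 1.02 TPM in any chromosome 3 library and was not tested. BST2 had 348 footprints in 3p loss and 5 in WT, a ratio of 65.0 (27.6 to 201.4). IFI44L had 106.2, 94.3 and 85.6 CPM in 3p loss and 2.52, 1.07 and 3.18 CPM in WT (5.17 ± 0.23, edgeR adjusted p = 2.40e-09). IFI44L and IFI44 lie side by side on chromosome 1, where the 15 tested neighbours had a median difference of 0.58.

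Of the 4 sensors tested, 2 rose (35.1% of all genes), and so did the kinase EIF2AK2. DDX58, the sensor RIG-I, had 194.9, 197.5 and 174.8 CPM in 3p loss and 24.8, 29.6 and 32.4 CPM in WT (2.57 ± 0.13, edgeR adjusted p = 5.97e-09). IFIH1 had 136.9, 126.5 and 123.5 CPM in 3p loss and 42.4, 35.0 and 48.2 CPM in WT (1.47 ± 0.13, edgeR adjusted p = 7.09e-07). EIF2AK2 had 339.0, 336.7 and 321.6 CPM in 3p loss and 120.5, 116.3 and 86.0 CPM in WT (1.49 ± 0.12, edgeR adjusted p = 4.00e-07). All 3 genes separated the groups completely. DHX58, the third RIG-I-like helicase, was near 1 CPM in every library and did not pass (-0.37 ± 0.40, edgeR adjusted p = 0.428), nor did ZNFX1 (-0.15 ± 0.08, edgeR adjusted p = 0.103).

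The IFIT, OAS and membrane genes are given next. IFIT1 had 244.1, 239.6 and 207.2 CPM in 3p loss and 22.7, 24.3 and 18.3 CPM in WT (3.27 ± 0.13, edgeR adjusted p = 1.60e-09), and IFIT2, IFIT3 and IFIT5 rose by 2.06, 2.86 and 1.78. OAS1 had 94.6, 104.3 and 93.8 CPM in 3p loss and 11.2, 9.10 and 6.60 CPM in WT (3.31 ± 0.17, edgeR adjusted p = 8.78e-09). The smallest rise in the OAS group with ADAR and EIF2AK2 was that of ADAR, 0.25 ± 0.09 (edgeR adjusted p = 0.0274), a call lost without WT replicate 1 or 2. IFITM1 had 8.70, 13.9 and 6.13 CPM in 3p loss and 1.01, 1.61 and 0.943 CPM in WT (2.86 ± 0.40, edgeR adjusted p = 3.70e-05). PLSCR1 rose by 1.72 ± 0.11 (edgeR adjusted p = 5.80e-08).

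The members that fell were GBP3, TRIM14 and IFITM3. GBP3 had 3.92, 4.94 and 5.39 CPM in 3p loss and 13.5, 7.85 and 12.5 CPM in WT, with no overlap (-1.37 ± 0.25, edgeR adjusted p = 0.000312). Its mRNA was also lower in all 3 libraries, 7.57, 2.84 and 9.82 TPM in 3p loss against 10.2, 15.3 and 11.9 TPM in WT, without passing (-0.91 ± 0.39, limma adjusted p = 0.146). Its relative GBP1 rose, with 38.5, 44.7 and 35.5 CPM in 3p loss and 9.57, 14.6 and 14.7 CPM in WT (1.47 ± 0.18, edgeR adjusted p = 1.41e-05). Guanylate-binding genes are alike in sequence and may share reads. TRIM14, an adaptor of antiviral signalling (-0.63 ± 0.20, edgeR adjusted p = 0.0143), and IFITM3 (-0.31 ± 0.11, edgeR adjusted p = 0.0282) fell with overlapping libraries. Both lost the call without 3p loss replicate 1 or without WT replicate 3.

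Set beside each other, the mRNA and footprint differences of 3p loss put the members in a similar order but differed in size. Of 44 members tested in both, 36 were positive in both, 4 negative in both and 4 of opposite sign. The footprint difference was the larger in 37, with medians of 1.62 for footprints and 0.56 for mRNA. The 2 scales are unlike, since log2(TPM + 1) shrinks the mRNA differences of low genes and edgeR's footprint differences carry no such offset. The part of scale in the 37 and in the gap between medians was not tested. Across the 44 members Pearson's r was 0.84 and Spearman's rho 0.79, a description over genes that are not independent. By the tests, 7 members rose in both, 30 rose in footprints without a call in mRNA, and 3 fell in footprints without a call in mRNA.

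**Figure D4:**
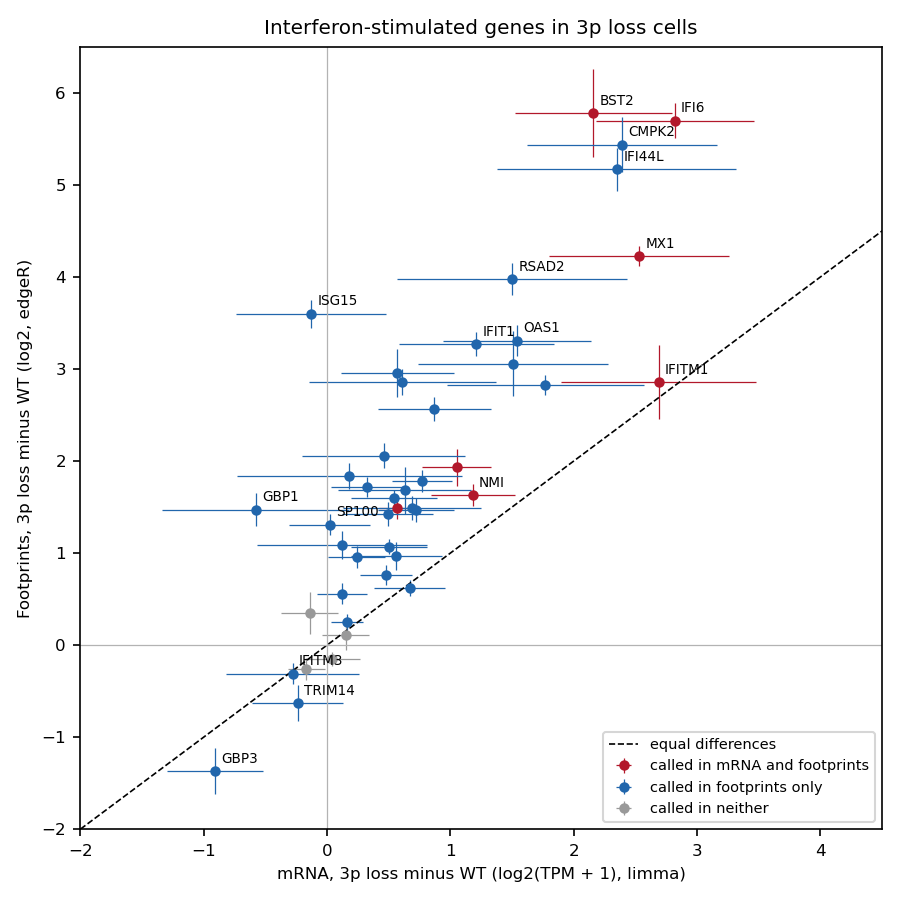
Scatter of 44 members, 3p loss minus WT, with the mRNA log2 difference from limma on the x axis and the footprint log2 difference from edgeR on the y axis, and bars for ± 1 SE. Most points (37 of 44) lie above the line of equal differences, and the vertical bars are short beside the horizontal ones. The mRNA scale, log2(TPM + 1), shrinks differences of low genes, which the footprint scale does not.

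Translational efficiency, the footprint level of a gene relative to its mRNA level, was compared between 3p loss and WT as an interaction in limma. Of 44 members, 16 rose (22.9% of all genes) and 0 fell (13.3% of all genes). The median difference was 1.05, against 0.13 over all genes, and 40 members were positive (56.5% of all genes). At an unadjusted p under 0.05 limma put 24 members higher (28.5% of all genes) and 0 lower. ISG15 had the largest, 3.82 ± 0.63 (limma adjusted p = 0.000717). IFI6 followed among those called, at 2.62 ± 0.66 (limma adjusted p = 0.00811), then IFIT3 at 2.32, IFIT1 at 2.14 and SAMD9L at 1.94. SP100, a nuclear body protein, had overlapping mRNA and separate footprint libraries. Its mRNA was 38.6, 32.0 and 35.6 TPM in 3p loss and 36.8, 28.3 and 40.5 TPM in WT, and its footprints were 114.0, 121.7 and 110.2 CPM in 3p loss and 39.8, 40.8 and 45.6 CPM in WT (1.42 ± 0.20, limma adjusted p = 0.000281).

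These efficiencies rest on mRNA and footprint libraries that are not stated to be from the same cultures. Like the comparison of mRNA with footprints before them, they also take cells labelled Chr3 WT and cells labelled 3p WT as the same line. The labels do not state this. The members' mRNA varied between replicates far more than their footprints. Without 3p loss mRNA replicate 3 the count of called members was 30, while 34.3% of all genes were called, against 36.2% with all libraries. It was 10 without 3p loss mRNA replicate 1, WT mRNA replicate 3, 3p loss footprint replicate 1 or WT footprint replicate 3, where 33.7%, 33.3%, 28.4% and 31.1% of all genes were called. A set of 9 of the 16 calls held in every alternative tried, among them ISG15, EIF2AK2, SP100, PLSCR1 and IFI6.

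Loss of 8p, measured in its own set with its own WT, split the members instead of raising them. All 55 were tested: 17 rose by limma (33.1% of all genes), 31 fell (36.0% of all genes) and 7 did not pass, so the share that rose was near the background and the share that fell was above it. The median difference was -0.21, against -0.01 over all genes, and 19 members were positive (48.9% of all genes). In 18 members all 8p loss libraries were above all of 8p WT (35.1% of all genes) and in 31 all were below (38.6% of all genes). By class, all 4 IFIT genes and 4 of 5 antiviral GTPase genes fell, while 4 of 6 membrane restriction genes rose.

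EPSTI1, named for epithelial-stromal interaction, had the largest fall of the 55. It had 1.01, 0.718 and 0.304 TPM in 8p loss and 32.2, 30.9 and 30.8 TPM in 8p WT (-4.29 ± 0.15, limma adjusted p = 1.13e-06). GBP1 had 23.4, 26.0 and 26.8 TPM in 8p loss and 87.9, 90.4 and 94.6 TPM in 8p WT (-1.80 ± 0.06, limma adjusted p = 7.45e-07). IFIT2 had 121.8, 117.4 and 123.6 TPM in 8p loss and 300.4, 303.5 and 311.0 TPM in 8p WT (-1.33 ± 0.03, limma adjusted p = 2.76e-07). Libraries within a group were close for all 3 genes. The other IFIT genes fell by 0.40 to 0.93, and SAMD9 fell by 1.16 (limma adjusted p = 3.63e-07). HERC5 and HERC6 fell by 1.17 and 1.04 (limma adjusted p = 1.85e-06 and 2.36e-06), but their tested neighbours on chromosome 4 had medians of -0.86 and -0.89.

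The membrane genes of the IFITM cluster went the other way. IFITM2 had 78.2, 77.9 and 80.7 TPM in 8p loss and 17.7, 16.8 and 18.4 TPM in 8p WT (2.10 ± 0.04, limma adjusted p = 1.82e-07). IFITM1 had 511.7, 473.3 and 515.3 TPM in 8p loss and 167.5, 180.0 and 173.7 TPM in 8p WT (1.52 ± 0.04, limma adjusted p = 5.40e-07). IFITM3 rose by 0.66 ± 0.04 (limma adjusted p = 8.54e-06), with the caution on shared reads given above. XAF1 had 45.9, 49.4 and 53.5 TPM in 8p loss and 10.4, 11.3 and 11.4 TPM in 8p WT (2.08 ± 0.07, limma adjusted p = 7.30e-07). ISG15 had 1722.2, 1346.7 and 1129.1 TPM in 8p loss and 924.7, 715.3 and 753.3 TPM in 8p WT (0.80 ± 0.16, limma adjusted p = 0.00403).

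Other members described above for the chromosome 3 set had smaller differences here. IFI6 had 1330.6, 1440.3 and 1105.8 TPM in 8p loss and 910.8, 892.8 and 855.4 TPM in 8p WT (0.54 ± 0.09, limma adjusted p = 0.00178). MX1 had 141.6, 141.1 and 143.8 TPM in 8p loss and 144.3, 140.2 and 142.0 TPM in 8p WT, which did not pass (limma adjusted p = 0.999). EIF2AK2 differed by -0.07 ± 0.04 (limma adjusted p = 0.173) and OAS1 fell by 0.51 ± 0.05 (limma adjusted p = 0.000104). The summed level of the 7 epithelial markers was 2558.7 to 2626.7 TPM in 8p loss and 7797.7 to 8287.4 TPM in 8p WT, and its part in these differences was not tested. The chromosome 8 set and the chromosome 3 set were sequenced separately, and differences between the sets were not tested.

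**Figure D5:**
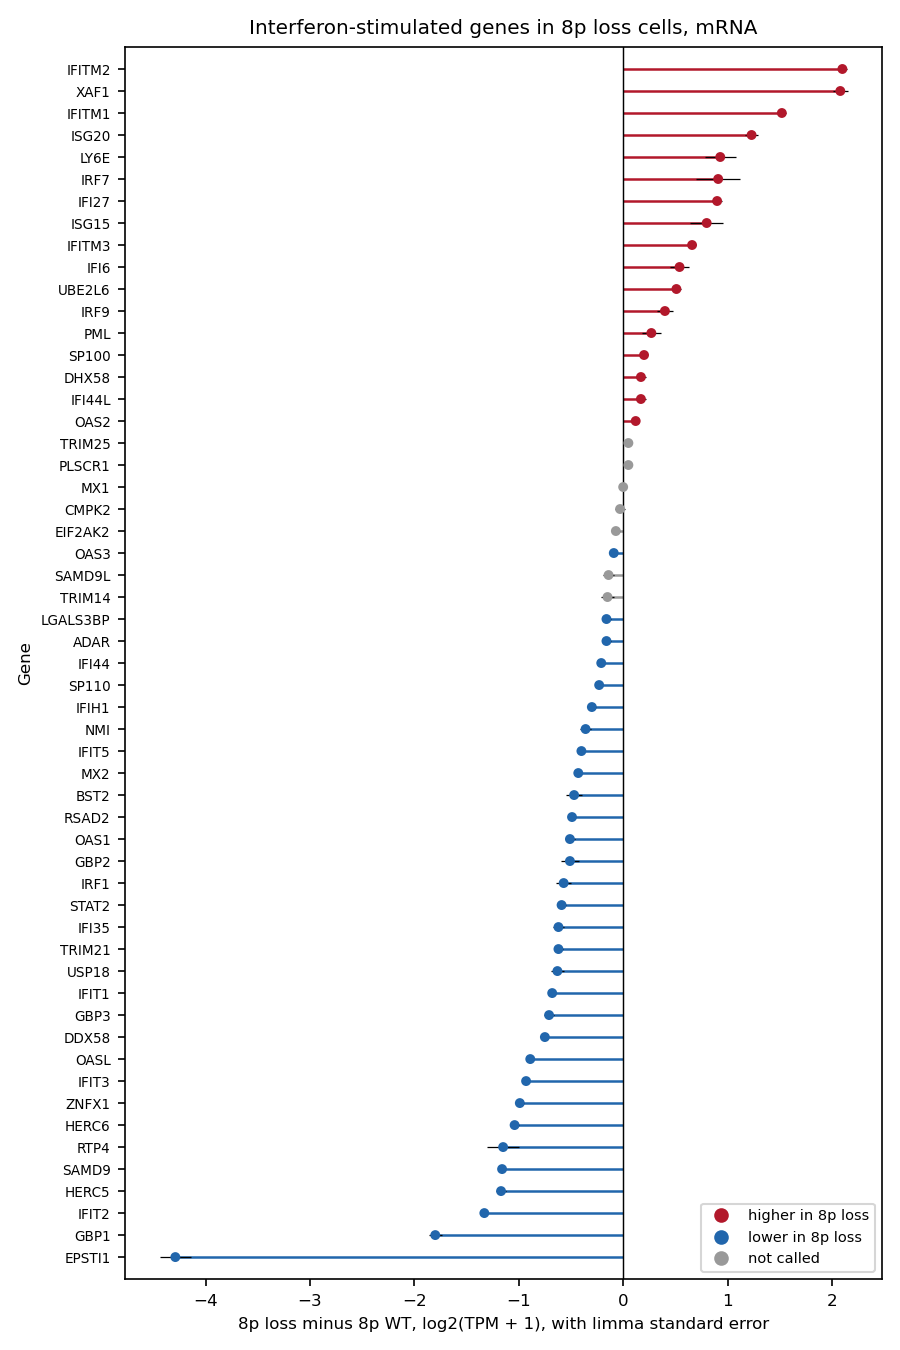
Log2 difference of each of the 55 members, 8p loss minus 8p WT, with bars for ± 1 SE from limma and members ordered by their difference. EPSTI1 lies lowest at -4.29 and IFITM2 highest at 2.10, and all 4 IFIT genes lie below 0.

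Interferons, their receptors and the JAK-STAT signalling genes held no gene whose mRNA was called higher in either chromosome 3 alteration. None of 10 interferon genes reached the level for a test in the chromosome 3 tables. IFNB1 was at 0 in every 3q gain and 3p loss mRNA library and at 0.400, 0.210 and 0 TPM in WT. Of 6 interferon receptor genes, 0 passed by limma in 3q gain, also at an unadjusted p under 0.05, and IFNGR2 alone passed in 3p loss, with 29.3, 34.6 and 36.8 TPM in 3p loss and 68.0, 64.6 and 65.9 TPM in WT (-0.96 ± 0.16, limma adjusted p = 0.00385). The receptor genes IFNAR1 and IFNAR2 did not pass in 3q gain (0.08 and -0.17) or in 3p loss (0.11 and -0.30). None of 9 JAK-STAT signalling genes passed by limma in either comparison, where 5.27% of all genes passed in 3q gain and 15.0% in 3p loss. At an unadjusted limma p under 0.05, 2 were higher in 3q gain (12.0% of all genes) and 0 lower. In 3p loss 1 was higher (14.6% of all genes) and 2 were lower. Differences of the 9 genes ran from -0.53 to 1.04 in 3q gain and from -0.85 to 0.43 in 3p loss. The kinase JAK1 differed by -0.06 in 3q gain and -0.04 in 3p loss.

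In footprints, of 8 JAK-STAT genes tested, 4 rose by edgeR (35.1% of all genes) and 4 fell (34.2% of all genes). Their differences ran from -1.19 in TYK2 (edgeR adjusted p = 2.16e-06) to 1.85. Of 5 interferon receptor genes tested, 2 rose (35.1% of all genes) and 0 fell (34.2% of all genes), with differences of -0.03 to 1.49. Among 13 genes of nucleic acid sensing, 5 rose, led by the RNA sensor TLR3 (1.97 ± 0.26, edgeR adjusted p = 2.38e-05), and 5 fell, led by the exonuclease TREX1 (-2.23 ± 0.44, edgeR adjusted p = 0.000608). Both counts of the sensing genes are near the shares of all genes just given.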

How the data were processed

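Poly(A) mRNA and ribosome-protected fragments were sequenced in 7 groups of 3 libraries. The footprint table holds whole-number counts per gene as deposited by the authors. The mRNA values deposited by the authors are already scaled and are taken as TPM because each library sums to between 861114 and 916783. The file headers name no unit, and FPKM cannot be told apart from it. GRCh38 is named in the submitters' processing notes, and the aligner, the counter and its use of strand are not given in the sources used here.

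For mRNA, limma 3.58.1 with its trend option was applied to log2(TPM + 1) of genes averaging 1 TPM or more. One model held the 9 libraries of the chromosome 3 set and another the 6 of the chromosome 8 set. Fold changes on this scale understate those of low genes. Footprint counts were tested with edgeR 4.0.16 (quasi-likelihood test, TMM normalization, filterByExpr) in R 4.3.3. Entries named by transcript (1061 names, 0.4318 to 0.5682% of counts) were left out. Translational efficiency was the interaction of assay and genotype in limma on log2(TPM + 1) and log2(CPM + 1). P-values were adjusted by Benjamini-Hochberg over all genes tested, and a gene is called at an adjusted p under 0.05. The main fit of each comparison was also run on simulated data with known changes, and the alternative settings were not.

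Members and lists were chosen with earlier results of these data known. Values by library are given for members called in a comparison and for the most abundant member of each role class, about 30 in all, and pathway genes named are IFNB1, IFNAR1, IFNAR2, JAK1, TYK2 and called ones. Some genes of the lists are not reported here. Same-numbered libraries of 3q gain and 3p loss deviated together (correlations of 0.12, 0.16 and 0.14 for replicates 1, 2 and 3), so the numbers may pair these 2 groups. The values given for this comparison come from the model without pairing. With the replicate block 0 members were called between them, as without it. Exact intervals cover counting error only. Alternatives were other filters, pseudocounts, centring, variance models, DESeq2 1.42.0 for footprints, a replicate block, 2-group fits, replicates 1 and 2 summed, and leaving out each library.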

Additional observations from a re-analysis of the deposited data

Results flagged for a closer look

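In 3p loss the difference from WT was larger in footprints than in mRNA for 16 members by limma's interaction test, all in the direction of more footprints per mRNA. On the log2 scale it was 3.82 for ISG15, 2.62 for IFI6, 2.32 for IFIT3, 2.14 for IFIT1, 1.94 for SAMD9L, 1.79 for OAS1, 1.77 for HERC6 and 1.51 for PLSCR1. It was 1.42 for SP100, 1.19 for SAMD9, 1.12 for IFIT5, 1.06 for EIF2AK2, 1.04 for SP110, 0.86 for USP18, 0.85 for IRF1 and 0.71 for OAS3. Over all genes 22.9% rose in this test. The calls of IRF1, USP18, OAS1, OAS3, IFIT1, IFIT3 and SAMD9L were lost in at least 1 alternative setting. What sets the 2 assays apart was not tested.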

How the results depend on the processing

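Of the members called, 39 of 42 in footprints, 44 of 48 in 8p loss, 9 of 16 in efficiency, 0 of 13 in 3q gain mRNA and 0 of 8 in 3p loss mRNA passed in every alternative run. No called value changed sign in any alternative. Without a filter on low values, 8 members were called in 3q gain (2.81% of all genes) and 2 in 3p loss mRNA (10.8% of all genes). In 3p loss mRNA the count was 3 without the trend (13.8% of all genes) and 4 with only the 2 groups fitted (10.1% of all genes). Between 3q gain and 3p loss, fitting only the 2 groups gave 1 call (3.85% of all genes). Leaving out each library in turn gave 0 to 10 calls in 3q gain, 0 to 8 in 3p loss mRNA, 0 to 2 between them, 40 to 44 in footprints, 10 to 30 in efficiency and 44 to 50 in 8p loss. In the same order, the shares of all genes called were 0.980% to 5.65%, 8.82% to 13.0%, 1.66% to 4.12%, 62.2% to 71.5%, 28.0% to 37.7% and 61.9% to 70.0%. The cause of these changes was not tested.

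The replicate block gave 18 calls in 3q gain (4.02% of all genes), 13 in 3p loss mRNA (13.4%), 43 in footprints (69.8%), 22 in efficiency (33.9%) and 49 in 8p loss (68.7%). In these comparisons the samples share only a number, with correlations of their deviations from -0.17 to 0.22, and not every library matched its own number best. DESeq2 called 42 members in footprints (66.5% of all genes), and summing replicates 1 and 2 gave 40 (56.7% of all genes). A footprint count of 0 allows up to 0.222 to 0.653 CPM by library, while the depth of the mRNA libraries is unknown.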

Other observations

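A list of 33 other interferon-induced genes was followed beside the members. In footprints of 3p loss, of 24 tested, 16 rose (35.1% of all genes) and 2 fell (34.2% of all genes) by edgeR, with a median difference of 0.72. LAMP3, a lysosomal membrane glycoprotein, had 77.2, 88.9 and 79.6 CPM in 3p loss and 4.28, 4.28 and 2.48 CPM in WT (4.36 ± 0.19, edgeR adjusted p = 2.19e-09). APOL6, APOL1 and TNFSF10, the gene of the death ligand TRAIL, rose by 3.42, 3.23 and 3.05. The 2 that fell were RNF213 (-1.27 ± 0.10, edgeR adjusted p = 4.06e-07) and SHISA5 (-0.86 ± 0.20, edgeR adjusted p = 0.00217). In mRNA of 3p loss 0 of 29 rose (6.17% of all genes) and 2 fell (8.80% of all genes) by limma. At an unadjusted limma p under 0.05, 5 were higher (14.6% of all genes) and 3 lower. In 3q gain 4 rose (2.60% of all genes) and 0 fell (2.67% of all genes) by limma, while 17 were higher (12.0% of all genes) and 2 lower at an unadjusted limma p under 0.05. Among the 4 that rose by adjusted p, TDRD7 had 38.4, 23.1 and 36.0 TPM in 3q gain and 10.6, 10.8 and 13.0 TPM in WT (1.40 ± 0.24, limma adjusted p = 0.0146). In 8p loss 7 of 32 rose (33.1% of all genes) and 21 fell (36.0% of all genes).

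Some genes that sense nucleic acids upstream of interferon were called in mRNA. Of 12 tested, 2 rose (2.60% of all genes) and 0 fell (2.67% of all genes) by limma in 3q gain. At an unadjusted limma p under 0.05, 7 were higher in 3q gain (12.0% of all genes) and 0 lower. In 3p loss 2 rose (6.17% of all genes) and 1 fell (8.80% of all genes) by limma. The 1 that fell, MYD88, an adaptor of toll-like receptors encoded on the lost arm, fell by 0.73 in 3p loss (limma adjusted p = 0.0109). In 8p loss the interferon gene IFNL1 had 1.33, 0.913 and 0.902 TPM, against 3.61, 4.57 and 2.58 TPM in 8p WT (-1.15 ± 0.18, limma adjusted p = 0.00103).

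The WT cells of the 2 sets differed in level. The summed level of 54 members was 7388.5 to 7656.4 TPM in 8p WT and 1397.1 to 2546.5 TPM in Chr3 WT. How many of all genes differ between these WT cells was not counted. The 2 tables were sequenced and normalized separately, so set and genotype cannot be told apart and no test was run.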
